A study of Mus musculus with 12 samples.

Results

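The co-stimulatory ligands of mature dendritic cells (DCs) were read as a set of 10 genes, Cd80, Cd86, Icosl, Cd40, Cd83, Cd70, Tnfsf4, Tnfsf9, Tnfsf18 and Cd48, out of 24232 genes that the arrays could name. All probes of these genes were taken, named through the accession of each probe, which gave 17 of 56605 probes. The rule is a list of names, and the names were drawn up with earlier results of these data known. RNA from bone marrow-derived DCs had been hybridised to 12 Agilent mouse arrays of 1 colour, 3 in each of 4 groups. The study asked how age, gut dysbiosis and a lactobacillus change the maturation and the tolerogenic program of DCs.

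All mice were female C57BL/6 animals, and no group carried a transgene or a deleted gene. Young mice were 2 months old by the labels, and Young-Abx mice were of the same age and drank water with ampicillin, neomycin, metronidazole and vancomycin. Old mice were 24 months old, and Old-LP mice were of that age and received Lactobacillus plantarum by mouth. The ages in the study's text differ somewhat from those of the labels. In all 4 groups marrow cells were grown with GM-CSF and IL-4 and the DCs were then exposed to lipopolysaccharide (LPS), a component of bacterial cell walls to which DCs respond by maturing, at 1 µg/ml for 24 h. No array held unstimulated DCs, so the induction of these genes by LPS could not be read. By the study's text each array held a pool of 3 mice, and the cells were loosely adherent marrow cultures, not sorted DCs.

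A DC that shows antigen to a T cell gives a second signal through membrane proteins of a few families. CD80 and CD86 of the B7 family bind CD28, which activates the T cell, and CTLA-4, which restrains it, and ICOSL binds ICOS. CD40 works the other way round, since it is a receptor on the DC that is engaged by CD40 ligand on the T cell. CD83 marks mature DCs and keeps MHC class II and CD86 on their surface by opposing the ubiquitin ligase MARCH1. CD70, OX40L (Tnfsf4), 4-1BBL (Tnfsf9) and GITRL (Tnfsf18) are ligands of the TNF superfamily, and their receptors on T cells are CD27, OX40, 4-1BB and GITR. CD48 is a small SLAM family protein on most blood cells that binds CD2 and CD244.

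Several of these genes lie in families along the chromosomes. In the RefSeq table of GRCm38.p6, Tnfsf4 and Tnfsf18 were neighbouring protein-coding genes on chromosome 1, followed by Fasl, and Tnfsf9 and Cd70 were neighbours on chromosome 17, followed by Tnfsf14. Cd48 also lay on chromosome 1, beside Slamf7, and both Cd80 and Cd86 lay on chromosome 16, though not side by side. The sequence table held a promoter window for 4 of the 10 genes (Cd80, Icosl, Cd48 and Tnfsf18). Those of Icosl and Cd80 are shown because they are the B7 members that the table holds, and their values are given further on. Each is the 250 bases before the RefSeq start site (GRCm38.p6, plus strand), Icosl at chr10:78069118-78069367 and Cd80 at chr16:38458683-38458932. Capitals mark a loose form of the κB motif that Rel proteins bind (GGGA, any 4 bases and CC, on either strand).
Icosl: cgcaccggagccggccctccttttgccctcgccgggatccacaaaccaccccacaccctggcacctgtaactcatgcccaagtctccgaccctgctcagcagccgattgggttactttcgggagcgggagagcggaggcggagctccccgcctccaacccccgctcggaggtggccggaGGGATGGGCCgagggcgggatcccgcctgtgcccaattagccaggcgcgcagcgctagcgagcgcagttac
Cd80: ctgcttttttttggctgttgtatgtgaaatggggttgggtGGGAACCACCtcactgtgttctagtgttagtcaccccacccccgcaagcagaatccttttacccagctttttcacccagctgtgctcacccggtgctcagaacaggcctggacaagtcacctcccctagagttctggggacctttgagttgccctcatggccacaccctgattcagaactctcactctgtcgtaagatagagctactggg
The motif was found once in each window, at -71 to -62 in Icosl and at -210 to -201 in Cd80, counted from the start site. It occurred in 17.6% of all 32851 windows of the same length, and those of Cd48 and Tnfsf18 did not hold it. Letters of the AP-1 motif, TGANTCA, stood at -42 to -36 in Cd80 and in 6.75% of all windows. A match is a description of the sequence and shows no binding.

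Replicates A and B of every group shared the first of 3 slides, the C arrays of Young and Young-Abx lay on the second and those of Old and Old-LP on the third. The share of spots that the scanner software set well above background was 61.2 to 66.4% for A and B and 37.3 to 46.0% for C. Values are log2 of the spot signal after quantile normalization, called log2 signal below. For a gene with several probes the brightest on average was used, and levels were not compared between genes because probes differ in brightness. Of the 10 genes, 9 were well above background on all 12 arrays and none was saturated. The exception was Tnfsf18, which was above background on 0 of 12 arrays at log2 signals between 1.71 and 2.60, so no fold is given for it and the medians and ranges below are those of the other 9. Of the 11 markers of DCs, all exceeded background throughout Young, Young-Abx and Old, and 10 did so on each Old-LP array. A gene was called where the Benjamini-Hochberg adjusted p of limma over all probes was at most 0.05 and the absolute log2 fold change at least 0.5. Where the replicate letters or the slides were entered as a block in the model, the counts are given beside those without it. In such bulk RNA, fewer cells of a type and less RNA per cell cannot be told apart.

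**Figure D1:**
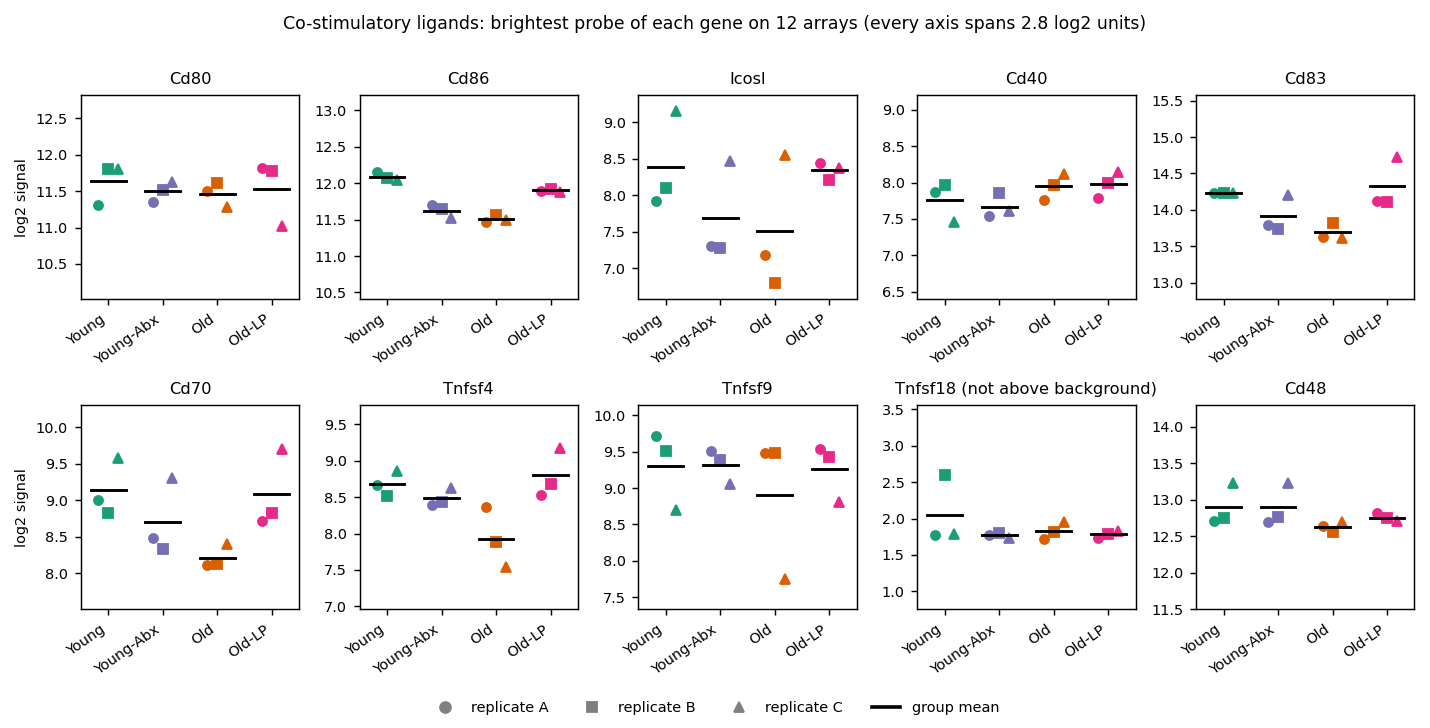
Log2 signal of the brightest probe of each of the 10 genes (y axis) in the 4 groups (x axis), with circles, squares and triangles for replicates A, B and C and a bar for the mean. The Cd86 arrays of Old lay between 11.46 and 11.56 and those of Young between 12.05 and 12.16, while the C arrays of Icosl, Cd70 and Tnfsf9 stood apart from A and B in most groups.

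Across the set, the signals of Old were below those of Young in most genes, and those of Old-LP were above Old. None of these differences was called without a block. In Old against Young, 0 of 10 genes were called, where 0.904% of the 24232 genes were called. Of the 9 genes above background, 8 had a log2 fold change below 0, with a median of -0.54 and a range of -0.93 to 0.18, beside a median of 0.003 over all genes. Groups did not overlap for 5 genes (Cd86, Cd83, Cd70, Tnfsf4 and Cd48), all lower in Old, beside 5.62% of all genes that were lower without overlap. In Old-LP against Old, 0 of 10 genes were called, where 0.512% of all genes were called. Here 9 of the 9 genes above background had a fold change above 0, with a median of 0.40 and a range of 0.03 to 0.87. Again 5 genes did not overlap, and these were higher in Old-LP (Cd86, Cd83, Cd70, Tnfsf4 and Cd48), beside 6.14% of all genes. Both comparisons share the Old arrays, so they are not independent of each other. The summed signal of the T cell markers was also lowest in Old, as given at the end. Among the 10702 genes that were well above background on all arrays, the shares without overlap were 5.99% lower in Old than in Young and 7.16% higher in Old-LP than in Old. Their median log2 fold change was -0.025 in Old against Young, with 45.8% of them above 0. In Old-LP against Old it was 0.051, with 57.1% above 0.

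In Young-Abx against Young, 0 of 10 genes were called, where 0.475% of all genes were called, and over the 9 genes above background the median was -0.20 (-0.71 to 0.01), with 7 of 9 below 0. Cd86 and Cd83 did not overlap, both lower, beside 4.45% of all genes. In Old-LP against Young, 0 of 10 genes were called and the share over all genes was 0%, with a median over the same 9 genes of -0.05 (-0.19 to 0.21). Only Cd86 did not overlap there, lower in Old-LP, beside 1.9% of all genes. In Old against Young-Abx, 0 of 10 were called beside 0.00413% of all genes, with a median of -0.22, and Cd48 and Tnfsf4 did not overlap, both lower in Old, beside 3.65% of all genes. In Old-LP against Young-Abx, 0 of 10 were called beside 0.198% of all genes, with a median of 0.31, and Cd86 did not overlap, higher in Old-LP, beside 4.7% of all genes. With the fold threshold kept and p left unadjusted, 4 genes were lower in Old than in Young (Cd70, Cd83, Cd86 and Tnfsf4), beside 3.44% of all genes, and 3 were higher in Old-LP than in Old (Cd70, Cd83 and Tnfsf4), beside 3.58%.

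**Figure D2:**
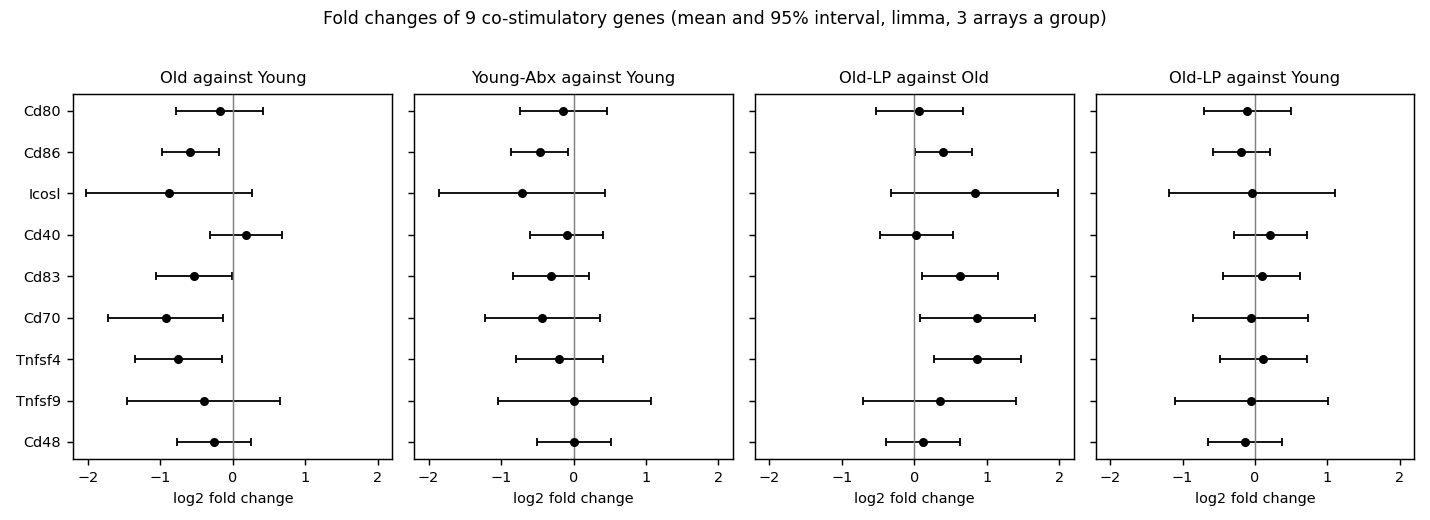
Log2 fold change (x axis) of the 9 genes above background in 4 comparisons of 3 against 3 arrays, as the limma mean with its 95% interval. The intervals of Cd86, Cd83, Cd70 and Tnfsf4 lay below 0 in Old against Young and above 0 in Old-LP against Old, and those of all 9 genes spanned 0 in Old-LP against Young.

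At the brightest probe of each gene, Cd86 was the B7 ligand with the tightest replicates. Its log2 signal was 12.16, 12.07 and 12.05 in Young, and 11.70, 11.65 and 11.52 in Young-Abx (replicates A, B and C). It was 11.46, 11.56 and 11.49 in Old, and 11.90, 11.92 and 11.88 in Old-LP. The order was therefore Young, Old-LP, Young-Abx and Old, and of these neighbours only Young-Abx and Old overlapped. Old was below Young with a log2 fold change of -0.59 (SE 0.18, limma adjusted p 0.341). Entering the replicate letter as a block gave an adjusted p of 0.049 and the slide 0.032, so Cd86 was called lower in Old with either block. The slide block also altered the fold change itself, since the C arrays of Old and Young lay on different slides. Young-Abx against Young gave -0.47 (SE 0.18, limma adjusted p 0.962), and Old-LP against Old gave 0.40 (SE 0.18, limma adjusted p 0.843). The difference between Old and Young was -0.60 on the first slide and -0.56 between the C arrays. That between Old-LP and Old was 0.40 and 0.39.

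The other probes of Cd86 gave a mixed picture. The second probe had log2 fold changes of -0.73 in Old against Young and 0.53 in Old-LP against Old, with adjusted p of 0.047 and 0.160 in limma with the replicate block. Its adjusted p without a block is not given here. Its replicates were not tight, since C was below A and B in every group (9.54, 9.55 and 8.46 in Old). The third, dimmer probe gave -0.10 and -0.02 for the same comparisons, and its C array of Young-Abx, at 7.80, was its lowest. Averaged over the 3 probes, Cd86 was at -0.48 in Old against Young.

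Icosl, the ligand of ICOS, had log2 signals of 7.92, 8.09 and 9.15 in Young, and 7.30, 7.27 and 8.47 in Young-Abx. It was 7.17, 6.80 and 8.56 in Old, and 8.44, 8.21 and 8.37 in Old-LP. The C array was about 1 log2 unit or more above A and B in Young, Young-Abx and Old but not in Old-LP, so the groups overlapped in every pair. Old against Young gave -0.88 (SE 0.52, limma adjusted p 1.000), with -1.02 on the first slide and -0.59 between the C arrays. Old-LP was above Old by 0.83 (SE 0.52, limma adjusted p 1.000), with 1.34 on the first slide and -0.18 between the C arrays, of opposite sign. A setting added after the data were seen used the 8 A and B arrays alone, 2 against 2 on the first slide. It leaves out the C arrays, which stood apart in Icosl. Where A and B are not separate cultures, its p-values measure only the spread between these arrays. In that setting Icosl was called in Old against Young (limma adjusted p 0.015), in Old-LP against Old (0.007) and in Old-LP against Young-Abx (0.024). On those arrays Cd70 was called as well in the first and second of these comparisons and Cd86 in the first, which made 3 of 10 genes lower in Old beside 6.12% of all genes, 2 higher in Old-LP than in Old beside 5.62%, and 1 higher in Old-LP than in Young-Abx beside 2.75%. Its dimmer probe exceeded background on A and B of each group but on no C array. On the former, Old against Young differed by -1.22 and Old-LP against Old by 0.58.

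The brightest probe of Cd80, the other ligand of CD28 and CTLA-4, read 11.31, 11.81 and 11.80 in Young, and 11.35, 11.52 and 11.63 in Young-Abx. It read 11.50, 11.61 and 11.28 in Old, and 11.81, 11.77 and 11.02 in Old-LP. All groups overlapped, and no neighbours in the order of means were separate. Its fold change was -0.18 in Old against Young (95% interval -0.78 to 0.42) and 0.07 in Old-LP against Old (-0.53 to 0.67), so changes of the size seen in Cd86 lie within these intervals. The 3 other probes of Cd80 ranged from -0.59 to 0.24 in Old against Young and from -0.49 to 0.67 in Old-LP against Old, and they differed in sign. The promoter windows of both Icosl and Cd80, shown above, hold the κB motif, and no relation of the motif to these values was tested.

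**Figure D3:**
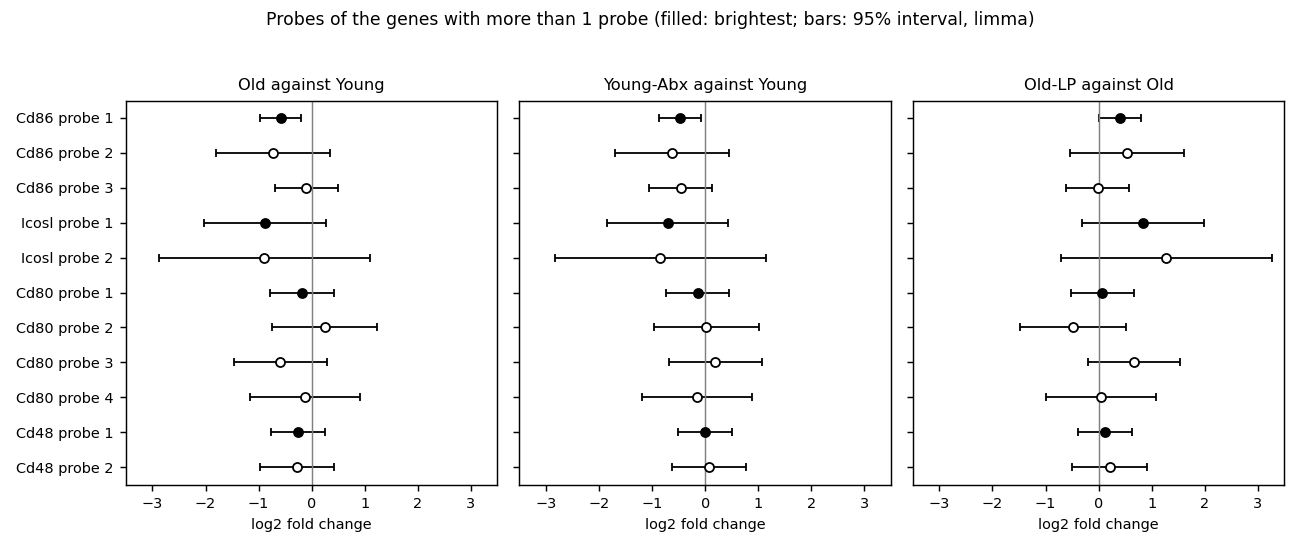
Log2 fold change (x axis) of every probe of Cd86, Icosl, Cd80 and Cd48, with the brightest probe filled and bars for the limma 95% interval over 3 against 3 arrays. Both Icosl probes lay on the same side of 0 in each comparison shown, though the values of the dimmer one include C arrays below background, while the 4 Cd80 probes lay on both sides.

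Cd83, the marker of mature DCs, had closely spaced replicates in Young. Its log2 signal was 14.23, 14.23 and 14.24 in Young, and 13.80, 13.74 and 14.21 in Young-Abx. It was 13.63, 13.82 and 13.62 in Old, and 14.13, 14.11 and 14.73 in Old-LP. Every Old array was below every Young and Old-LP array, and the C array of Old-LP was the highest of all 12. Old was lower than Young by 1.45-fold (-0.54, SE 0.24, limma adjusted p 0.800), and Old-LP was 1.55-fold above Old (0.63, SE 0.24, limma adjusted p 0.681). Neither block brought it to a call, with adjusted p of 0.260 and 0.267 for Old against Young with the replicate and the slide block. The difference between Old-LP and Old was 0.39 on the first slide and 1.11 between the C arrays.

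Cd40, the receptor through which T cells license DCs, was at 7.87, 7.97 and 7.46 in Young, and 7.54, 7.85 and 7.61 in Young-Abx. It was at 7.77, 7.96 and 8.12 in Old, and between 7.79 and 8.14 in Old-LP. All groups overlapped. It was the only gene of the set with a higher mean in Old than in Young (0.18, 95% interval -0.32 to 0.68). That value came from the C arrays, with a difference of 0.66, while the A and B arrays gave -0.06. Old-LP differed from Old by 0.03 (-0.47 to 0.53).

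Among the TNF superfamily ligands, Cd70, the ligand of CD27, was at 9.01, 8.83 and 9.58 in Young, and 8.49, 8.34 and 9.30 in Young-Abx. It was at 8.11, 8.12 and 8.39 in Old, and 8.71, 8.83 and 9.70 in Old-LP. The C array was the highest in each group, and each Old array was below all Young and Old-LP arrays. Old was 1.90-fold below Young (-0.93, SE 0.36, limma adjusted p 0.629), and Old-LP was 1.83-fold above Old (0.87, SE 0.36, limma adjusted p 0.766). With the replicate block the SE was 0.17, and the adjusted p was 0.037 for Old against Young, which is a call, and 0.057 for Old-LP against Old, which is not. With the slide block they were 0.048 and 0.028, and both were called. The slide block also altered the fold changes in Old against Young, since the C arrays of Old and Young lay on different slides. No gene of the set was then below -0.87. Old-LP and Young differed by -0.06 (95% interval -0.85 to 0.74).

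Tnfsf4, the ligand of OX40, was at 8.67, 8.51 and 8.86 in Young, and 8.40, 8.43 and 8.63 in Young-Abx. It was at 8.36, 7.88 and 7.54 in Old, and 8.53, 8.69 and 9.18 in Old-LP. Old was the lowest group and did not overlap with any other, and the other 3 overlapped with their neighbours. Old was 1.69-fold below Young (-0.75, SE 0.27, limma adjusted p 0.538), and Old-LP was 1.83-fold above Old (0.87, SE 0.27, limma adjusted p 0.430). The differences were larger between the C arrays (-1.32 and 1.63) than on the first slide (-0.47 and 0.49), and neither block gave a call.

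Tnfsf9, the ligand of 4-1BB, read between 9.39 and 9.72 on the A and B arrays of all 4 groups. The C arrays read 8.71 in Young, 9.06 in Young-Abx, 7.75 in Old and 8.81 in Old-LP. The difference between Old and Young was therefore -0.13 on the first slide and -0.95 between the C arrays, or -0.40 over all (95% interval -1.46 to 0.65). The C arrays of Old and Young lay on different slides, so slide and group cannot be told apart there, while those of Old and Old-LP shared a slide and differed by 1.06. Tnfsf18, its relative beside Tnfsf4 on chromosome 1, stayed at the background.

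**Figure D4:**
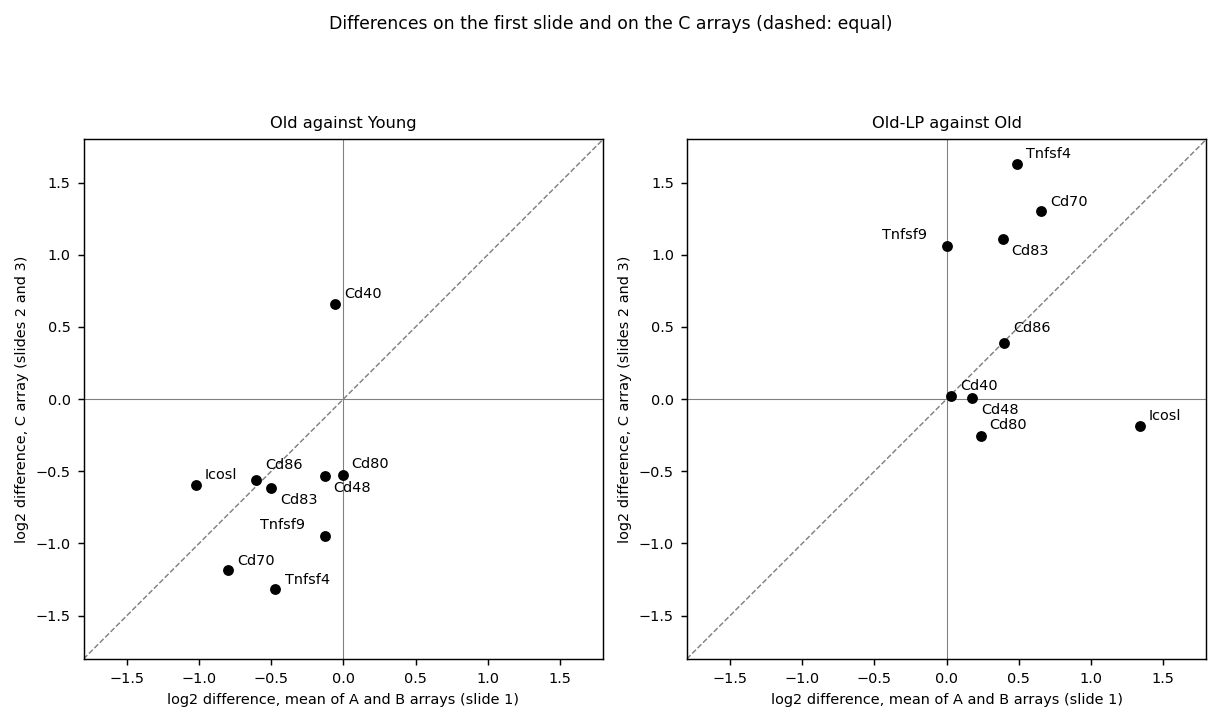
Log2 difference between the C arrays (y axis) against that between the means of the A and B arrays (x axis) for the 9 genes above background, with a dashed line where they are equal. Cd86 lay on the line in both panels, Tnfsf4, Cd70 and Cd83 lay on the same side of 0 on both axes, and Icosl in Old-LP against Old was at 1.34 on the first slide and -0.18 between the C arrays.

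Cd48, the SLAM family ligand, had log2 signals of 12.71, 12.76 and 13.23 in Young, and 12.70, 12.76 and 13.23 in Young-Abx. It was 12.64, 12.56 and 12.70 in Old, and 12.81, 12.74 and 12.70 in Old-LP. Every Old array was below every array of the other groups, though the highest of Old rounds to the same 12.70 as the lowest of Old-LP and of Young-Abx. The fold changes were -0.26 in Old against Young (95% interval -0.77 to 0.24) and 0.12 in Old-LP against Old (-0.39 to 0.63). The second probe gave -0.28 and 0.21.

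With the replicate block, 2 of 10 genes were called in Old against Young (Cd86 and Cd70, both lower), where 1.42% of all genes were called lower, or 2.07% of the genes above background on all arrays. With the slide block, 2 of 10 were called lower (Cd86 and Cd70), beside 1.88% of all genes, and 1 was called higher in Old-LP against Old (Cd70), beside 2.42%. These calls were close to the threshold. When each array was left out in turn with the replicate block, the adjusted p ranged from 0.043 to 0.247 for Cd86 and from 0.033 to 0.196 for Cd70, and each was called in 2 of 12 fits, those without the C array of Old or of Old-LP. The latter fit also called Icosl (adjusted p 0.041). The Cd70 call in Old-LP against Old with the slide block held in 4 of 12 fits (adjusted p 0.029 to 0.099), the 4 without a C array, and without the C array of Old or of Old-LP Icosl was called too (0.004).

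The T cell partners of these genes were read too, namely receptors and Cd40lg, the ligand of CD40. Of 10 partners listed, 8 had fold changes below 0 in Old against Young (median -0.64). In Old-LP against Old, 8 were above 0 (median 0.59). None was called without a block. Tnfrsf18, which encodes GITR, read 12.06, 12.02 and 11.33 in Young, and 10.91, 10.96 and 10.79 in Young-Abx. It read 10.29, 10.36 and 9.65 in Old, and 12.02, 11.78 and 11.04 in Old-LP. Its fold changes were -1.71 in Old against Young (SE 0.33, limma adjusted p 0.055) and 1.51 in Old-LP against Old (limma adjusted p 0.126). With the replicate block both were called, at adjusted p of 0.003 and 0.008. Tnfrsf4, which encodes OX40, was also called with that block, at -1.33 and 1.26 in these comparisons (adjusted p 0.003 and 0.006) and at -0.98 in Young-Abx against Young (0.018). In Old against Young 1.42% of all genes were called lower with that block, and the shares for the other comparisons are not given here. Cd40lg was above background on 0 of 12 arrays. Cd28 was at -0.42 and 0.39 in Old against Young and Old-LP against Old, with no call. Also without a call were Tnfrsf9, at -0.94 and 1.04, and Ctla4, at -2.45 and 2.81 but above background on only 9 of 12 arrays. Icos went the other way in both comparisons, at 0.19 and -0.36. Tnfrsf18 was thus above background on all 12 arrays, and its ligand Tnfsf18 on 0. The summed T cell markers were lower in Old than in Young and Old-LP. Between Young-Abx and Young these sums overlapped (25585 to 44658 and 25849 to 41822). The part of T cells in the receptor values was not tested.

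Of 5 other B7 family genes, Pdcd1lg2 was called in Old against Young and in Old-LP against Old. Beside it, 0.904% and 0.512% of all genes were called in either direction. Vtcn1 was above background on 0 of 12 arrays and Cd276 on 1 of 12. Pdcd1lg2 encodes PD-L2, a ligand of the inhibitory receptor PD-1. Its log2 signal was 12.58, 12.57 and 11.81 in Young, and 11.20, 11.12 and 11.18 in Young-Abx. It was 10.53, 10.67 and 10.68 in Old, and 12.53, 12.49 and 11.77 in Old-LP. It fell by 1.69 on the log2 scale in Old against Young (SE 0.28, limma adjusted p 0.027) and rose by 1.64 in Old-LP against Old (SE 0.28, limma adjusted p 0.050). Without each array in turn the first call held in 5 of 12 fits (adjusted p 0.015 to 0.158) and the second in 2 of 12 (0.027 to 0.244). The first was lost without A or B of Young, Young-Abx or Old or B of Old-LP, and the second held only without the C array of Young or of Old-LP. In Young-Abx against Young it was at -1.15 with no call (limma adjusted p 0.256). Cd274, which encodes PD-L1, was at 0.28 and 0.20 in Old against Young and Old-LP against Old, with no call.

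**Figure D5:**
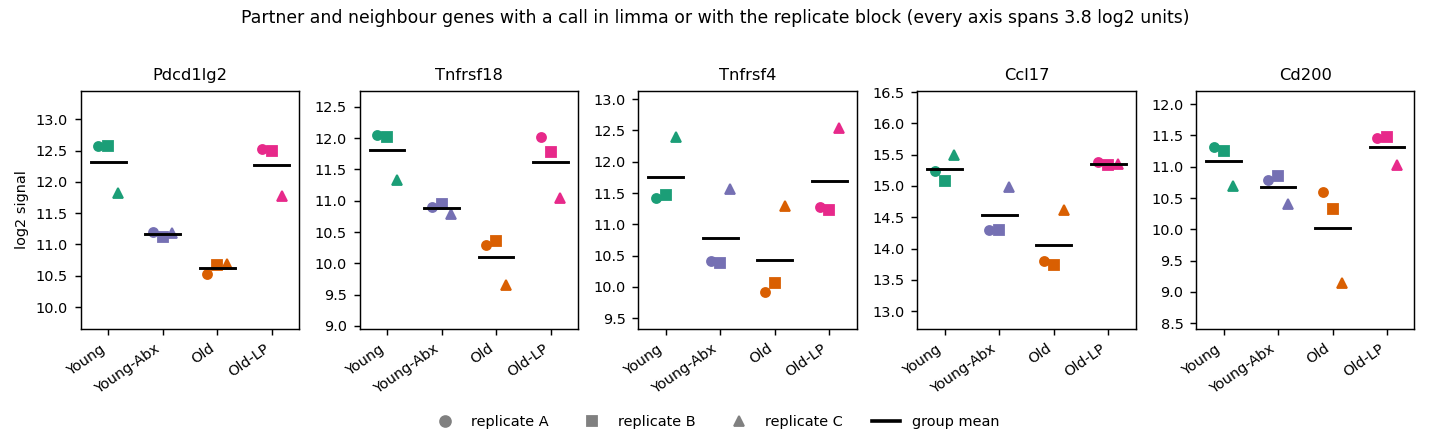
Log2 signal (y axis) in the 4 groups, with a symbol for each replicate and a bar for the mean. Shown are Pdcd1lg2 and 4 of the listed genes called with the replicate block, Tnfrsf18, Tnfrsf4, Ccl17 and Cd200. In each gene shown the mean of Old was the lowest, at 10.63 for Pdcd1lg2 and 10.10 for Tnfrsf18. Marker genes called with that block, most of them higher in Old, are not shown.

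The other lists around these genes held few calls. Of 11 other TNF superfamily ligands with a probe, 0 were called in Old against Young (median -0.58) or in Old-LP against Old (median 0.69). Tnfsf14, the neighbour of Cd70, was at -0.75 and 0.92 in these comparisons and Ltb at -0.74 and 0.90, and Tnf was at 0.01 and -0.005. Of the 10 genes of TRAF and IAP signalling below CD40, 0 were called in either comparison (medians -0.18 and 0.26), and the 7 other SLAM family genes (0.05 and -0.02) and 7 adhesion molecules of the contact with T cells (0.01 and 0.04) also held 0 calls. The ubiquitin ligases of surface CD86, Marchf1 and Marchf8, were at 0.25 and 0.04 in Old against Young. Of 12 genes of DC maturation, 0 were called without a block, with medians of -0.31 in Old against Young and 0.31 in Old-LP against Old. Ccl17, a chemokine of mature DCs, was at -1.22 and 1.30 and Cd200 at -1.07 and 1.30. These 2 were called with the replicate block in both comparisons (adjusted p 0.019 and 0.019 for Ccl17, 0.049 and 0.028 for Cd200). The share of all genes called lower with that block was 1.42% in Old against Young, and the share for Old-LP against Old is not given here. Ccr7, the homing receptor of mature DCs, was at -0.25 and 0.14. The 10 genes of the LPS receptor and its adaptors held 0 calls in either comparison (medians -0.14 and 0.04).

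Markers of other cells moved with some of these differences. The summed signal of 8 T cell markers was 17544 to 21323 in Old, against 25849 to 41822 in Young, 25585 to 44658 in Young-Abx and 26174 to 37676 in Old-LP, and Old did not overlap with the others. All 8 were above background on every array of Young, Young-Abx and Old-LP, and 7 on every array of Old. Of the 8, 1 had a fold change above 0 in Old against Young (median -0.91) and 7 did in Old-LP against Old (median 0.70), with no call. Cd3d was at -1.69 and 1.47 in these comparisons and Il7r at -0.01 and 0.18, while Cd4 went the other way at 0.04 and -0.57. The sum over 8 B cell markers was 3264 and 3410 on the A and B arrays of Old but 17066 on its C array, against 6077 to 6914 in Young. That of 8 mast cell and basophil markers was 15525 and 14111 on the A and B arrays of Old and 63552 on its C array, against 23934 to 49157 in Young. The sum over 10 neutrophil and granulocyte precursor markers was 8682 and 8431 on the A and B arrays of Old and 55681 on its C array, against 20259 to 22633 in Young. Of these markers, 7 of 10 had fold changes below 0 in Old against Young (median -0.43, Mpo at -1.74 and Ngp at -1.26) and 8 of 10 in Young-Abx against Young (median -0.53). Camp went the other way and was called higher in both, at 2.71 and 2.47, a call that held in 8 of 12 and in 2 of 12 fits with 1 array left out (limma adjusted p up to 0.118 and 0.272). Of 10 megakaryocyte and erythroid markers, 6 had fold changes above 0 in Old against Young, while Hbb-bt was at -2.69, Klf1 at -0.80 and Hba-a1 at -0.49 with no call. Gp9 and Epor were called higher in Old and in Young-Abx than in Young, and Epor lower in Old-LP than in Old. Of all genes, 0.904%, 0.475% and 0.512% were called in either direction in these 3 comparisons. With 1 array left out, Gp9 kept its call in 8 of 12 fits for Old and in 2 of 12 for Young-Abx. The calls of Camp and Gp9 in Old were lost without A or B of Young or of Old, and those in Young-Abx held only without the C array of Old or of Old-LP. Epor kept its calls in 9 of 12, 7 of 12 and 7 of 12 fits in the order named, and each loss followed the removal of an A or B array except for 1, that of the C array of Young-Abx in Young-Abx against Young. The sum over this list was 50309 to 101540 in Old and 40249 to 69628 in Young. The sums of 11 DC markers (537469 to 571762 in Old, 452636 to 557228 in Young), 10 macrophage markers (183044 to 302813 and 175652 to 279505) and 5 NK cell markers (1343 to 2268 and 1429 to 2730) overlapped between Old and Young. In limma with the replicate block, the DC marker H2-Ab1 was called higher in Old than in Young (0.79, adjusted p 0.042). The macrophage marker Fcgr1 was called lower (-1.24, 0.014). Gata1 (1.61, 0.031) and Itga2b (2.44, 0.013) were called higher with that block, and so were Camp, Gp9 and Epor. The share of all genes called higher with that block is not given here. Some members are also made by cells other than DCs, Cd48 by most blood cells and Cd70 by activated lymphocytes. The part of these other cells in the differences of the ligands was not tested.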

How the data were processed

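The authors deposited the intensity of each spot as read by Agilent Feature Extraction (version 12.1.1.1 in the file headers, 10.5 in the labels), background-subtracted by that software and not normalized between arrays, and a table of log2 values for 46302 probes. Here log2 of the deposited intensity was quantile normalized over 12 arrays, 1068 outlier spot readings were set to missing and repeated spots were averaged to 56605 probes, of which 35405 matched 24232 RefSeq symbols (GRCm38.p6, used for names, neighbours and promoters only, since the arrays name mm9). R 4.3.3 with limma 3.58.1 (lmFit and eBayes, 4 group means, no block) was used, two-sided, with Benjamini-Hochberg adjustment over all probes. Tests were tried on simulated data. With 3 against 3 arrays an exact permutation p cannot go below 0.1, so none was used. The precision is limited by how few arrays there are.

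Samples were grouped by their titles. Named are the 10 members at their brightest probe and, of each list, the genes called, and otherwise at most 4 genes with the highest mean signal. Genes named from the lists outside this rule, such as those called with a block, were chosen after their values were seen. The members and lists were chosen with earlier results of these data known. Deviations from the group means correlated between arrays with the same letter (r 0.415 to 0.711 over 18 pairs), and as strongly between A and B (0.449 to 0.570). Between C and A or B they correlated negatively (-0.659 to -0.466). This sets C apart from A and B and does not show a pairing by letter. The letters, taken from the titles, were still entered as a block, which is given where it changes a call. Where A and B are not separate cultures, p-values measure only the spread between these arrays. The alternatives were a 75th percentile shift, normexp on the median signal with an offset of 50, the authors' log2 table, a filter on dim probes, gene means over probes, a block for the letter or the slide, the compared groups alone, an intensity trend, outlier spots kept, unadjusted p, each array left out and, added after the data were seen, A and B arrays alone and each array left out under a block. No authors' fold changes were used.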

Additional observations from a re-analysis of the deposited data

How the results depend on the processing

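The count of members called was 0 in all 6 comparisons with the filter on dim probes, gene means over probes, the authors' log2 table, normexp, the 75th percentile shift, the compared groups alone, the intensity trend and outlier spots kept, and between 0 and 0 when single arrays were left out. In Old against Young the count was 2 with the replicate block, 2 with the slide block, 3 on the A and B arrays alone (Cd86, Icosl and Cd70, where 6.12% of all genes were called lower) and 4 with unadjusted p. In Old-LP against Old it was 1 with the slide block, 2 on the A and B arrays alone (Icosl and Cd70, where 5.62% were called higher) and 3 with unadjusted p, and in Old-LP against Young-Abx it was 1 on the A and B arrays alone (Icosl, where 2.75% were called higher). The A and B arrays alone, 2 in each group on 1 slide, were tried after the data were seen. With 1 array left out as well, the count ranged from 0 to 3 with the replicate block in Old against Young and from 0 to 2 with the slide block in Old-LP against Old. The replicate block changed no other call among the members.

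Of the fold changes of single genes under all settings, 1334 kept their direction and their side of the threshold, 82 changed sign with no call in either setting and 18 came to a call. Changes of sign under another scaling, background correction, outlier rule or the authors' table touched Tnfsf18, Tnfsf9 and Cd48. With gene means over probes the sign changed for Icosl in Old-LP against Young (0.17), Cd86 in Old against Young-Abx (0.04) and Cd80 in Old-LP against Young-Abx (-0.07). The 75th percentile shift moved the median of all genes to 0.11 in Old against Young, -0.10 in Young-Abx against Young, 0.16 in Old against Young-Abx and 0.14 in Old-LP against Young-Abx, and the median of all 10 members, Tnfsf18 included, was then -0.47, -0.29, -0.13 and 0.31.

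The C arrays had fewer spots above background, and the fits include C values that were not above background, as for the dimmer Icosl probe. Groups of 3 arrays cannot show small changes, and Tnfsf18 could not be measured.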
